A study of Mus musculus with 30 samples.

Results

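The 10 genes described here, Ppara, Ppard, Rxrg, Esrra, Esrrb, Esrrg, Ppargc1a, Ppargc1b, Klf15 and Tfam, encode transcriptional regulators of mitochondrial and fatty acid metabolism. They were taken as a named set, chosen with earlier results of these data known. All 10 were found by symbol among the 43629 genes counted in mouse hearts. The libraries came from wild-type C57BL/6J mice at day 2, 4 or 7 after an operation. In MI mice a coronary artery was ligated after thoracotomy and removal of the pericardium, and sham mice had the same operation except for the ligation. Each of the 6 groups held 5 libraries, and all 30 libraries carried the same genotype and no drug treatment is given in the labels. The labels do not say which region of the heart was taken or how large the infarcts were, and they name replicates as separate samples without naming the animals, so that all p-values refer to the spread between samples, which may be technical.

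PPARα and PPARδ are nuclear receptors that are activated by fatty acids and bind DNA as partners of an RXR receptor, of which Rxrg encodes the isoform found mainly in muscle, heart and brain. The estrogen-related receptors ERRα, ERRβ and ERRγ, encoded by Esrra, Esrrb and Esrrg, have no known natural hormone and are switched on chiefly by the coactivators PGC-1α and PGC-1β, encoded by Ppargc1a and Ppargc1b. In the heart these proteins together maintain the genes of fatty acid oxidation, the citric acid cycle and the respiratory chain. Klf15 encodes a zinc finger factor that drives amino acid and lipid catabolism and is known as a brake on cardiac hypertrophy, and Tfam encodes the protein that packages mitochondrial DNA and starts its transcription.

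Library totals lay between 7841930 and 14070017 counts, and each of the 10 genes was detected in all 30 libraries, with 122 to 3124 counts. Values are given as CPM, a gene's count divided by the total of its library and multiplied by 1000000. The 8 cardiomyocyte markers (among them the troponin genes Tnnt2 and Tnni3) were above 0 in every library. Their summed level was 26994 to 32296 CPM in MI and 37859 to 40927 CPM in sham hearts at day 7, where 7 fibroblast markers summed to 7100.0 to 14195 CPM in MI and 1595 to 3044 CPM in sham hearts and 9 macrophage and neutrophil markers to 1068 to 2485 CPM in MI and 341 to 735 CPM in sham hearts. Transcripts of tissues other than heart stood out in 7 libraries: lung genes in sham day 4 replicates 2 and 3, sham day 7 replicates 1 to 3 and MI day 7 replicate 2, and the skeletal muscle myosin gene Myh1 in MI day 7 replicate 4. Adipocyte markers were above 0 in every group, with sums up to 335 CPM in a sham day 4 library.

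Per length of annotated exon, Esrra was the most abundant of the 10 transcripts and Ppargc1b the least in sham hearts of day 7. The sham means were 64.6 ± 3.38 CPM per kilobase for Esrra and 39.5 ± 3.09 for Rxrg, well apart. Klf15 at 16.8 ± 0.900 and Ppargc1a at 16.8 ± 1.33 CPM per kilobase did not differ beyond their spread, nor did the neighbours Tfam at 14.3 ± 0.637 and Ppara at 13.5 ± 2.48, or Ppara and Esrrg at 11.8 ± 1.33. Esrrb at 7.15 ± 0.953, Ppard at 6.45 ± 0.565 and Ppargc1b at 5.66 ± 1.21 CPM per kilobase closed the order (SD, n = 5). In MI hearts of the same day the ends of the order were the same, with Esrra at 38.7 ± 6.82 and Ppargc1b at 3.83 ± 0.275 CPM per kilobase. Klf15 stood below Tfam there, at 7.57 ± 1.37 against 10.9 ± 1.42 CPM per kilobase.

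**Figure D1:**
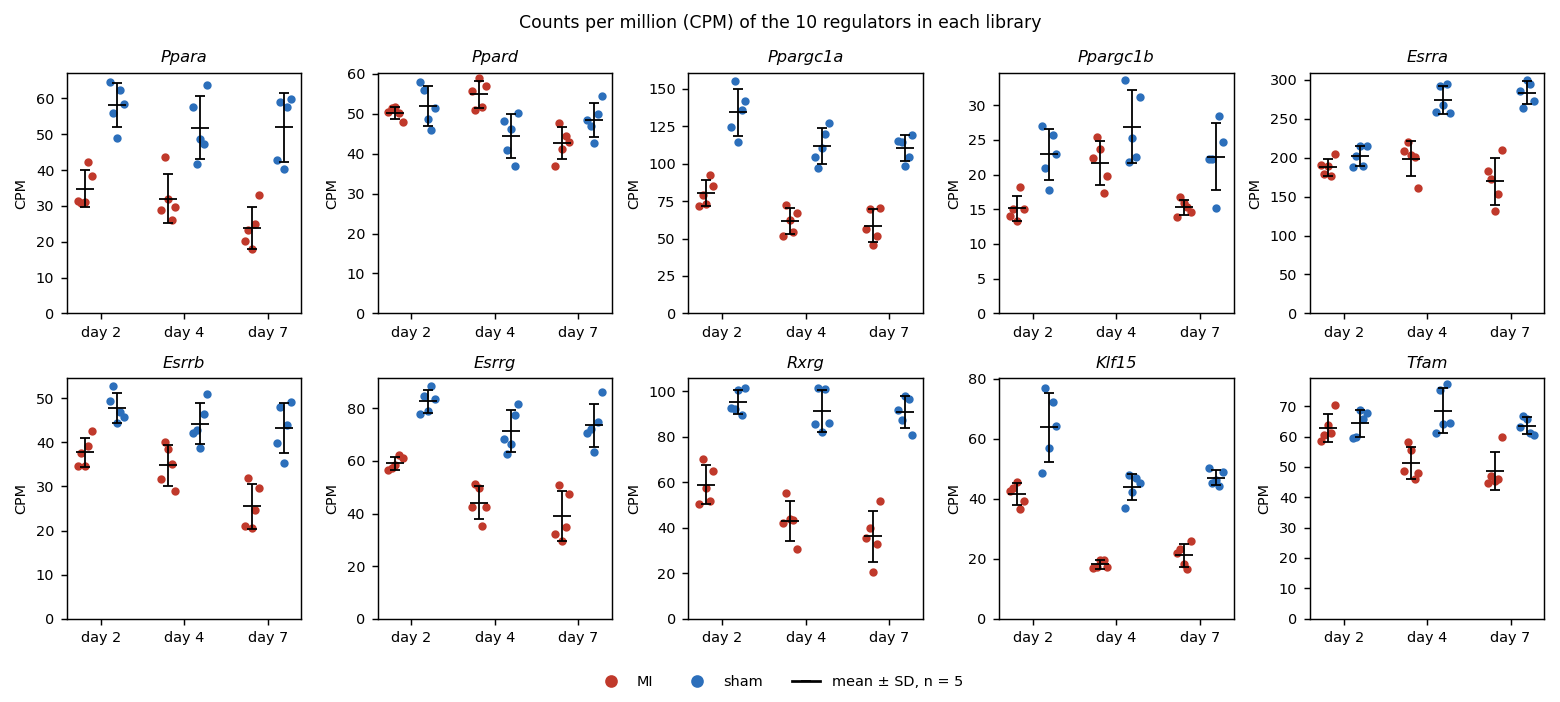
CPM of each of the 10 genes in every library, with MI left of sham at each day, points for libraries and bars for the mean and SD of 5 libraries. At day 7 the MI points lie below all sham points in 8 of the 10 panels, the exceptions being Ppard and Ppargc1b.

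Most of the regulators were lower in MI than in sham hearts already at day 2, and all 10 were lower by day 7. At day 2, 8 of the 10 were lower past the threshold (edgeR adjusted p under 0.05), against 22.2% of all genes tested, and Ppard and Tfam did not pass. At day 4, 9 were lower, against 25.2% of all genes, and Ppard did not pass. At day 7 all 10 were lower, against 26.6% of all genes. Because the 10 genes were chosen with earlier results of these data known, these counts are no independent test of the set. The median log2 fold change of the 10 genes, MI over sham, was -0.63 at day 2, -0.75 at day 4 and -1.03 at day 7, where the median of all genes tested was -0.01, 0.01 and 0.01. The MI libraries lay below every sham library for 6 members at day 2, 6 at day 4 and 8 at day 7, which held for 10.3, 11.1 and 12.2% of all genes. The hearts were sequenced in bulk, so that fewer cells of a type and less RNA per cell cannot be told apart. Without the libraries that held transcripts of other tissues, 9 members were lower at day 4 and 10 at day 7, and the day 7 value of Ppargc1b was -1.08. Some lung transcripts remained in that day 7 comparison. MI replicates 3 and 5, which were kept, had lung marker sums of 33.1 and 25.5 CPM. The sham replicates kept, 4 and 5, had 0.126 and 0.383 CPM.

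Among the nuclear receptors that bind fatty acids and their partner, Rxrg (ENSMUSG00000015843, chr1:167598384-167639623 in GRCm38, plus strand) had the lowest log2 fold changes at days 4 and 7. At day 2, in the order of replicates 1 to 5, it had 50.2, 70.2, 57.2, 51.7 and 64.9 CPM in MI hearts, against 92.6, 92.1, 100.3, 89.7 and 101 CPM in sham hearts. At day 4 it had 42.0, 55.3, 43.7, 43.3 and 30.5 CPM in MI hearts, against 85.4, 101, 82.0, 101 and 86.0 CPM in sham hearts. At day 7 it had 35.6, 39.9, 20.3, 33.0 and 51.8 CPM in MI hearts, against 91.9, 87.2, 97.8, 96.5 and 80.5 CPM in sham hearts. All MI libraries were below all sham libraries at each day, and MI day 7 replicate 3 was the lowest of the 30. The log2 fold changes were -0.79 ± 0.09 (SE; edgeR adjusted p = 1.07e-05) at day 2, -1.26 ± 0.14 (SE; edgeR adjusted p = 4.95e-06) at day 4 and -1.53 ± 0.19 (SE; edgeR adjusted p = 2.31e-05) at day 7. The other RXR genes also fell at day 7, Rxra with a log2 fold change of -0.64 ± 0.09 and Rxrb with one of -0.54 ± 0.08 (SE; edgeR adjusted p = 5.06e-05 and 9.56e-05).

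Ppara (ENSMUSG00000022383, chr15:85734983-85802819, plus strand), the receptor that drives fatty acid oxidation genes in heart and liver, fell at each day. Ppara had 31.5, 30.9, 31.1, 42.1 and 38.4 CPM in MI hearts at day 2, against 64.7, 55.8, 48.9, 62.3 and 58.4 CPM in sham hearts. Ppara had 28.9, 43.7, 32.0, 26.1 and 29.6 CPM in MI hearts at day 4, against 57.6, 41.8, 48.6, 47.3 and 63.8 CPM in sham hearts. Ppara had 20.2, 23.2, 17.9, 24.9 and 33.1 CPM in MI hearts at day 7, against 42.9, 59.0, 40.2, 57.7 and 59.7 CPM in sham hearts. The groups overlapped at day 4 alone, where MI replicate 2 lay above sham replicate 2. Ppara had log2 fold changes of -0.82 ± 0.11 (SE; edgeR adjusted p = 4.11e-05) at day 2, -0.87 ± 0.15 (SE; edgeR adjusted p = 0.000203) at day 4 and -1.31 ± 0.17 (SE; edgeR adjusted p = 3.06e-05) at day 7. Sham replicates 1 and 3 of day 7 were the 2 lowest sham libraries, both among those with lung transcripts, and without all such libraries the day 7 value was -1.55.

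Ppard (ENSMUSG00000002250, chr17:28232700-28301474, plus strand), the PPAR receptor made in most cell types, followed another course. At day 2 Ppard read 50.3, 51.4, 51.6, 50.2 and 47.9 CPM in MI hearts, against 57.8, 55.8, 48.6, 45.8 and 51.5 CPM in sham hearts. At day 4 Ppard read 55.6, 51.0, 59.0, 51.7 and 56.9 CPM in MI hearts, against 48.1, 40.9, 46.0, 36.9 and 50.1 CPM in sham hearts. At day 7 Ppard read 36.8, 47.6, 41.2, 44.5 and 42.9 CPM in MI hearts, against 48.4, 47.0, 42.7, 49.9 and 54.3 CPM in sham hearts. The groups overlapped at days 2 and 7, and at day 4 all MI libraries lay above all sham libraries in CPM, as for 28.2% of all genes. Its log2 fold changes, MI over sham, were -0.14 ± 0.07 (SE; edgeR adjusted p = 0.142) at day 2, 0.13 ± 0.09 (SE; edgeR adjusted p = 0.231) at day 4 and -0.38 ± 0.09 (SE; edgeR adjusted p = 0.00378) at day 7, so that only the last passed the threshold. These values use TMM factors, which correct for genes that take up much of a library. With library totals alone the day 4 value was 0.30, past the threshold (edgeR adjusted p = 0.0121), and the day 7 value was -0.18 and no longer passed. That scaling moved the median of all genes up by 0.09 at day 2, 0.18 at day 4 and 0.20 at day 7 on the log2 scale.

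The 3 ERR genes were all lower at day 7, and their courses before that differed. Esrra (ENSMUSG00000024955, chr19:6910977-6921813, minus strand) had 190.2, 179.6, 189.8, 176 and 204 CPM in MI hearts at day 2, against 189, 203, 215, 190.0 and 215 CPM in sham hearts. Esrra had 209, 220.1, 204, 201 and 161 CPM in MI hearts at day 4, against 259, 292, 267, 295 and 257 CPM in sham hearts. Esrra had 183, 172, 131, 153 and 210.4 CPM in MI hearts at day 7, against 286, 265, 300.2, 294 and 273 CPM in sham hearts. The groups overlapped at day 2 and separated at days 4 and 7. On the log2 scale Esrra differed by -0.20 ± 0.08 (SE; edgeR adjusted p = 0.0476) at day 2, -0.64 ± 0.10 (SE; edgeR adjusted p = 9.76e-05) at day 4 and -0.93 ± 0.12 (SE; edgeR adjusted p = 3.57e-05) at day 7. The day 2 call was lost when any of MI replicates 1 to 4 or sham replicates 2 to 5 was left out, in a fit of all 30 libraries, with library totals, with limma voom and with no filter on low counts, with values from -0.22 to -0.10 (edgeR adjusted p = 0.0786 in the fit of 30 and 0.247 with library totals). Annotated exons of Esrra share 91 bases with Mir6990 on the same strand and 73 with Trmt112 on the other, of 4387 bases, so that a small part of its reads could be split with these genes.

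Esrrg (ENSMUSG00000026610, chr1:187608791-188214885, plus strand), the ERR gene most restricted to tissues of high energy demand, was lower in every MI library than in every sham library at each day. It spanned 56.6 to 62.3 CPM in MI and 77.7 to 88.4 CPM in sham hearts at day 2, 35.3 to 51.1 and 62.5 to 81.6 CPM at day 4, and 29.7 to 50.8 and 63.6 to 86.3 CPM at day 7. Its log2 fold changes were -0.57 ± 0.07 (SE; edgeR adjusted p = 2.23e-05) at day 2, -0.87 ± 0.11 (SE; edgeR adjusted p = 1.82e-05) at day 4 and -1.11 ± 0.15 (SE; edgeR adjusted p = 4.23e-05) at day 7. Esrrb (ENSMUSG00000021255, chr12:86361117-86521628, plus strand), best known as a pluripotency factor of embryonic stem cells, was counted at 20.5 to 31.9 CPM in MI and 35.3 to 49.2 CPM in sham hearts at day 7. Its log2 fold changes were -0.43 ± 0.08 (SE; edgeR adjusted p = 0.000764) at day 2, -0.52 ± 0.11 (SE; edgeR adjusted p = 0.0014) at day 4 and -0.96 ± 0.14 (SE; edgeR adjusted p = 7.27e-05) at day 7. The groups of Esrrb overlapped at day 4, where MI replicate 2, at 40.1 CPM, lay above sham replicate 3, at 38.6 CPM.

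The coactivator Ppargc1a (ENSMUSG00000029167, chr5:51454250-51567726, minus strand), the master inducer of mitochondrial biogenesis, was separated between the groups at each day. At day 2 it had 71.9, 79.4, 73.0, 92.5 and 85.3 CPM in MI hearts, against 125, 155, 115, 136 and 142 CPM in sham hearts. At day 4 it had 51.8, 72.6, 62.4, 54.5 and 67.3 CPM in MI hearts, against 105, 97.5, 111, 119.7 and 127 CPM in sham hearts. At day 7 it had 56.4, 69.5, 46.0, 51.6 and 70.2 CPM in MI hearts, against 115, 115, 98.2, 105 and 119 CPM in sham hearts. The highest MI library of any day, at 92.5 CPM, was below the lowest sham library, at 97.5 CPM. The log2 fold changes carried SEs of 0.10, 0.11 and 0.12 around values of -0.83, -1.04 and -1.11 at days 2, 4 and 7 (edgeR adjusted p = 1.1e-05, 2.31e-06 and 1.04e-05).

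Ppargc1b (ENSMUSG00000033871, on chromosome 18) was the least abundant of the 10, and its groups overlapped at each day. It spanned 13.4 to 18.2 CPM in MI and 17.8 to 27.0 CPM in sham hearts at day 2, 17.4 to 25.4 and 21.8 to 33.6 CPM at day 4, and 13.9 to 16.7 and 15.2 to 28.4 CPM at day 7. The lowest sham library of day 7 was replicate 3, one of those with lung transcripts. Ppargc1b had log2 fold changes of -0.68 ± 0.13 (SE; edgeR adjusted p = 0.000481) at day 2, -0.48 ± 0.14 (SE; edgeR adjusted p = 0.00858) at day 4 and -0.76 ± 0.15 (SE; edgeR adjusted p = 0.000668) at day 7. With library totals the day 4 value was -0.31 and did not pass.

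Klf15 (ENSMUSG00000030087, chr6:90462576-90475238, plus strand) was the regulator with the largest fall at day 4. Klf15 had 42.6, 43.7, 45.5, 36.5 and 39.1 CPM in MI hearts at day 2, against 48.4, 77.1, 57.1, 72.1 and 64.1 CPM in sham hearts. Klf15 had 16.7, 17.1, 19.5, 19.7 and 17.3 CPM in MI hearts at day 4, against 37.0, 47.9, 42.3, 46.9 and 45.4 CPM in sham hearts. Klf15 had 21.9, 23.1, 18.2, 16.5 and 26.0 CPM in MI hearts at day 7, against 50.3, 45.1, 46.4, 44.3 and 48.8 CPM in sham hearts. The groups did not overlap at any day, and the day 2 sham libraries were the most spread. Klf15 had log2 fold changes of -0.72 ± 0.11 (SE; edgeR adjusted p = 0.00012) at day 2, -1.46 ± 0.10 (SE; edgeR adjusted p = 7.88e-08) at day 4 and -1.35 ± 0.12 (SE; edgeR adjusted p = 3.46e-06) at day 7.

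Tfam (ENSMUSG00000003923, chr10:71225464-71238280, minus strand) was, with Ppard, one of the genes that did not pass at day 2. It had 58.4, 60.6, 63.8, 61.1 and 70.6 CPM in MI hearts at day 2, against 59.5, 60.0, 68.8, 65.7 and 67.9 CPM in sham hearts. At day 4 Tfam read 48.8, 58.1, 55.5, 46.0 and 48.0 CPM in MI hearts, against 61.3, 75.4, 64.1, 77.4 and 64.6 CPM in sham hearts. At day 7 Tfam read 44.8, 47.0, 45.5, 45.9 and 59.7 CPM in MI hearts, against 63.3, 66.8, 66.0, 61.2 and 60.4 CPM in sham hearts. The groups overlapped at day 2 and separated at days 4 and 7, where MI replicate 5 of day 7 came close to the sham range. Tfam had log2 fold changes of -0.13 ± 0.08 (SE; edgeR adjusted p = 0.241) at day 2, -0.60 ± 0.10 (SE; edgeR adjusted p = 0.000213) at day 4 and -0.58 ± 0.09 (SE; edgeR adjusted p = 0.000136) at day 7.

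Some libraries were the extremes of their group for several members, and the share of all genes for which this held was not counted. Replicate 2 of the MI day 4 group was the highest of its group for 8 of the 10 genes. In the MI day 7 group, replicate 3 was the lowest for 6 genes, replicate 5 the highest for 6 and replicate 2, which held lung transcripts, the highest for the other 4. Among sham libraries of day 7, replicate 3 was the lowest for 6. Some of these libraries were also extremes in marker sums. MI day 4 replicate 2 had the highest cardiomyocyte sum of its group, at 35043 CPM. In the MI day 7 group, replicate 3 had the highest fibroblast sum, at 14195 CPM, and replicate 5 the lowest, at 7100 CPM. Replicate 3 also had the highest cardiomyocyte sum of that group, at 32296 CPM. The part of cell content in these extremes was not tested.

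Promoter windows, 250 bases before each start in RefSeq (GRCm38.p6), were found for 9 of the 10 genes, in 14 windows, and were searched on both strands for 5 motifs. The windows of Klf15, which fell furthest at day 4, and of the Rxrg start that carries a match are shown, 5′ to 3′ on the gene's strand, with matches in capitals. The Klf15 window (chr6:90462326-90462575, plus strand) held the E-box CACGTG, the palindrome that the clock proteins CLOCK and BMAL1 are known to bind, at 228 to 223 and at 172 to 167 bases before the start. The Rxrg window (chr1:167618015-167618264, plus strand) held the nuclear receptor half-site AGGTCA at 88 to 83 bases before the start. No base of either window lies in an annotated exon.
Klf15: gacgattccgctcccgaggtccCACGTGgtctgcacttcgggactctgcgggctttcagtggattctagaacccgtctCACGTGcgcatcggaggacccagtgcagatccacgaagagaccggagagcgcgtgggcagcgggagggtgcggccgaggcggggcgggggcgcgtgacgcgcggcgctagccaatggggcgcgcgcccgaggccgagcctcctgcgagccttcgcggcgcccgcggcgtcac
Rxrg: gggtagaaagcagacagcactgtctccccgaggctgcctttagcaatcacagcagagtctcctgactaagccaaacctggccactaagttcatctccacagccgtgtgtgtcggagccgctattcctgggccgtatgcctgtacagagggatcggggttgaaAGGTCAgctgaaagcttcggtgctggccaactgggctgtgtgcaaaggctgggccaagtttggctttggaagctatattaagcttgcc
The E-box was present in 6.02% of 32851 promoter windows and the half-site in 14.0%. The ETS core CCGGAAG, the kind of site that GABPA binds, was found in the Tfam window, 47 to 41 bases before the RefSeq start, and in 6.91% of all windows. Annotated exons cover 236 of the 250 bases of that Tfam window. The ERR response element TNAAGGTCA, whose last 6 letters are the half-site, and the cAMP response element TGACGTCA had no match in these windows and were present in 1.14 and 1.55% of all windows. The other windows of these genes held no match, so that no motif is shown to be more frequent here than among all windows. Such matches describe the letters of these windows and were not tested as binding sites.

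Whether the MI effect differed between days was tested as an interaction in 1 fit of all 30 libraries. Between days 2 and 4 the effect on Klf15 and on Tfam became more negative, 2 of the 10 members, against 2.29% of all genes lower. Between days 4 and 7 this held for Ppard alone, against 0.315% of genes. Over the whole span, day 7 minus day 2, the effect became more negative for 6 members, against 9.11% of genes: Esrra, Esrrb, Esrrg, Rxrg, Klf15 and Tfam. The differences, on the log2 scale, were -0.74 ± 0.16 (SE; edgeR adjusted p = 0.00662) for Klf15 and -0.47 ± 0.13 (SE; edgeR adjusted p = 0.0371) for Tfam from day 2 to day 4, and -0.49 ± 0.11 (SE; edgeR adjusted p = 0.0285) for Ppard from day 4 to day 7. From day 2 to day 7 they were -0.71 ± 0.14 (SE; edgeR adjusted p = 0.000671) for Esrra and -0.72 ± 0.22 (SE; edgeR adjusted p = 0.0199) for Rxrg, and between -0.43 and -0.61 for the other 4. The same difference was -0.47 ± 0.22 (SE; edgeR adjusted p = 0.141) for Ppara and -0.26 ± 0.16 (SE; edgeR adjusted p = 0.278) for Ppargc1a, neither of which passed. The Klf15 call between days 2 and 4 held in every fit tried. Esrra, at -0.44 ± 0.14 (SE; edgeR adjusted p = 0.0648) for that step, passed without MI day 2 replicate 2, MI day 4 replicate 2 or sham day 4 replicate 3, with the groups of the step alone in the fit, with DESeq2 and with limma voom, with values from -0.51 to -0.45. The Tfam call at that step was lost without any 1 of MI day 2 replicates 3 to 5, MI day 4 replicates 1, 4 and 5, sham day 2 replicates 1 and 2 or sham day 4 replicates 2 and 4, with values from -0.48 to -0.40. The Ppard call was lost without any 1 of MI day 4 replicates 1 to 3, MI day 7 replicates 1 and 3, sham day 4 replicates 2 and 3 or sham day 7 replicates 4 and 5, with values from -0.51 to -0.44. Of the day 2 to day 7 calls, Esrrb and Esrrg were both lost without any 1 of MI day 2 replicates 4 and 5, MI day 7 replicates 1 and 3 or sham day 7 replicates 4 and 5, with values from -0.50 to -0.44. Both were lost with limma voom, at -0.36 for Esrrb and -0.38 for Esrrg, and with library totals. Esrrg was also lost without MI day 7 replicate 4 or sham day 2 replicate 1 or 2, with values from -0.52 to -0.50, and Tfam without MI day 2 replicate 5, at -0.38. Ppara passed only without MI day 7 replicate 5, at -0.63. Without the 7 libraries with transcripts of other tissues, Rxrg at -0.73, Klf15 at -0.58 and Tfam at -0.37 did not pass for day 7 minus day 2, and Ppard at -0.44 did. Day 2 libraries carried another run name in the labels than those of days 4 and 7, and MI and sham libraries of a day shared it.

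In the sham hearts themselves, Klf15 and Ppard were lower and Esrra was higher at day 4 than at day 2, 3 of the 10 genes against 24.4% of all genes. The log2 fold changes were -0.56 ± 0.11 (SE; edgeR adjusted p = 0.000355) for Klf15, 0.42 ± 0.10 (SE; edgeR adjusted p = 0.00209) for Esrra and -0.25 ± 0.08 (SE; edgeR adjusted p = 0.0245) for Ppard. Time and sequencing run cannot be told apart here. The Ppard call was lost without any 1 of sham day 2 replicates 1 and 2 or sham day 4 replicates 2 to 4, without the libraries that held transcripts of other tissues and with the sham day 2 and day 4 libraries alone in the fit, with values from -0.24 to -0.20. Ppargc1a, at -0.28 ± 0.11 (SE; edgeR adjusted p = 0.0679), passed only without sham day 2 replicate 3 or sham day 4 replicate 4 or 5, of all libraries left out singly, and with the replicate number as a block. Between day 7 and day 4 of the sham hearts edgeR called 0 of the 10 genes, against 0.122% of all genes, with 0 at an unadjusted p under 0.05, and DESeq2 and limma voom also called 0.

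Macrophage and neutrophil marker sums were higher in the infarcted hearts at each day, and fibroblast marker sums at days 4 and 7. At day 2 the fibroblast sums of the groups overlapped, with a mean of 1587 CPM after MI against 1666 CPM after the sham operation. A second scale set each gene against the summed CPM of the 8 cardiomyocyte markers. The marker sum itself was 35124 ± 2203 CPM in MI and 36893 ± 1549 CPM in sham hearts at day 2 (SD, n = 5 each; exact permutation test, adjusted p = 0.175). At day 4 it was 31000.2 ± 2369 CPM in MI and 43038 ± 4025 CPM in sham hearts, and at day 7 it was 29606 ± 2493 CPM in MI and 39333 ± 1287 CPM in sham hearts, each with an adjusted p of 0.0119. Per marker transcript, 7 of the 10 genes were lower in MI hearts at day 2, 3 at day 4 and 6 at day 7, while Ppard was higher at days 4 and 7. By the same ratio and test, called up to the largest raw p called among the members (0.0238), 9.65, 2.57 and 4.30% of all genes were lower at days 2, 4 and 7. The share of all genes that were higher was 66.8% at day 4 and 63.5% at day 7, so that the Ppard call stands among the many genes that were higher on this scale. The counts of members come from exact permutation tests, 2-sided, adjusted over the 30 tests of 10 genes and 3 days, and the smallest p they allow is 0.00794. Whether the marker transcripts change per cell was not tested.

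At day 2, Ppara stood at 63.1% of its sham level per marker transcript, Ppargc1a at 63.1%, Rxrg at 64.7%, Klf15 at 69.4%, Ppargc1b at 70.5%, Esrrg at 75.4% and Esrrb at 83.0%. The adjusted exact permutation p was 0.0198 for the members whose groups did not overlap, 0.028 for Esrrb and 0.0397 for Klf15. At day 4, Klf15 stood at 58.1%, Rxrg at 64.9% and Ppargc1a at 76.4% of the sham level, and Ppard at 172%. At that day Ppara at 85.8% and Esrrg at 85.9% did not pass, nor did Esrra at 100.2%, Tfam at 104%, Esrrb at 109% and Ppargc1b at 113%. At day 7, Rxrg stood at 51.3%, Klf15 at 60.0%, Ppara at 61.5%, Esrrg at 69.7%, Ppargc1a at 70.3% and Esrra at 79.0%, and Ppard at 117%. Tfam at 102%, Ppargc1b at 92.8% and Esrrb at 78.5% did not pass. Leaving out 1 library, so that the exact test compares 4 libraries with 5, weakened 6 of these calls. All 6 had groups that overlapped on this scale, and the calls without overlap held with any 1 library left out. Groups that do not overlap stay apart with 1 library less and again take the smallest p, so that this was no test of those calls. Klf15 at day 2 passed only without sham replicate 1, and Esrrb at day 2 only without sham replicate 3 or MI replicate 5, with log2 differences from -0.57 to -0.43 and from -0.29 to -0.21 where they were lost. Ppargc1a at day 4 passed only without sham replicate 2 or MI replicate 5, with differences from -0.41 to -0.33 where it was lost. At day 7, Ppara passed only without sham replicate 3 or MI replicate 5, Esrrg only without sham replicate 3 or MI replicate 2 and Ppard only without sham replicate 5 or MI replicate 3, with differences from -0.76 to -0.58, from -0.57 to -0.40 and from 0.18 to 0.26 where they were lost. With all libraries, Klf15, Rxrg and Ppargc1a were the members past the threshold on this scale at all 3 days. With sham day 4 replicates 2 and 3 left out, too few libraries were left for any member to pass at day 4 after adjustment. The smallest p for 5 against 3 libraries is 0.0357, so that this was no test of the day 4 calls. The day 4 values of Klf15, Rxrg, Ppargc1a and Ppard were then -0.75, -0.62, -0.45 and 0.77 on the log2 scale. With all libraries they were -0.78, -0.62, -0.39 and 0.78.

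**Figure D2:**
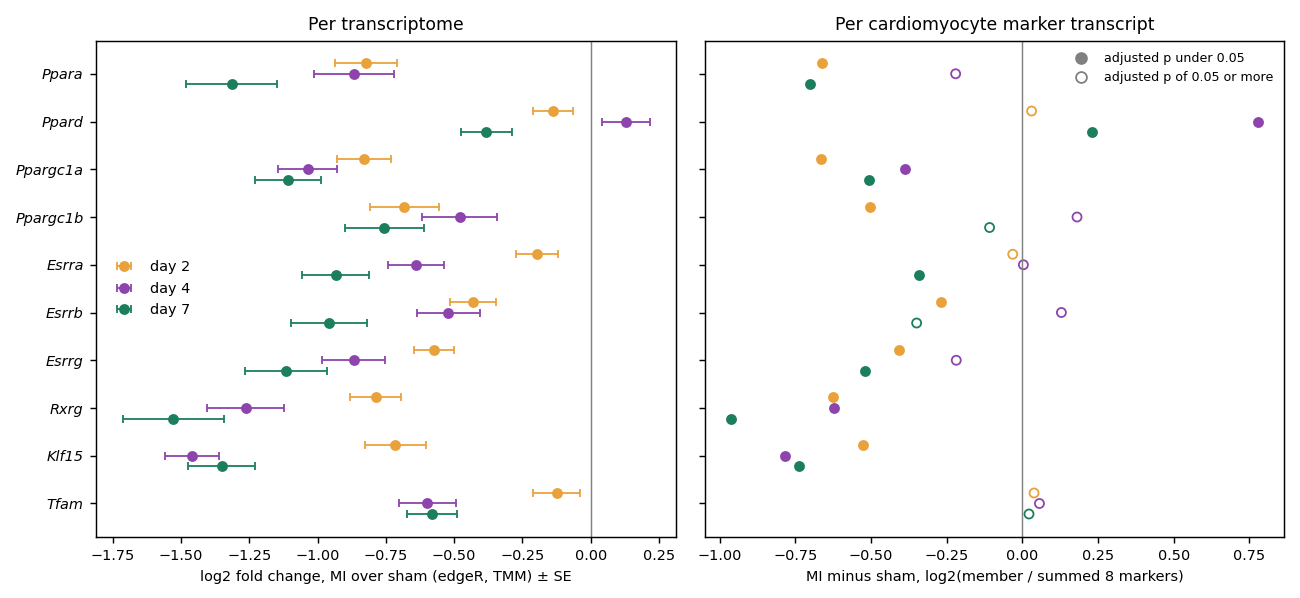
Left, log2 fold change of MI over sham with its SE for each gene and day (edgeR, TMM factors, n = 5 each). Right, the MI minus sham difference of log2 member over summed cardiomyocyte markers, with filled points for an adjusted exact permutation p under 0.05. Tfam lies near 0 on the right at each day and Ppard lies above 0 at days 4 and 7.

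The share that a gene holds within its own family does not depend on library scaling. The shares of a family add up to the whole, so that a smaller share of a gene goes with a larger share of the rest. Tests within a family are therefore not independent, and a larger share does not mean a higher level. Exon lengths were used to weigh the genes of 4 families (RXR, PPAR, ERR and PGC-1), and the 36 shares were compared by exact permutation tests, a comparison added after the fold changes had been seen. Rxrg was the most abundant RXR transcript in sham hearts, and at days 4 and 7 it made up less of the family in MI hearts. Its share was 33.6 ± 6.74% in MI and 49.7 ± 2.21% in sham hearts at day 7 (SD, n = 5; exact permutation test, adjusted p = 0.013), and 37.1 ± 4.42% in MI and 51.7 ± 4.29% in sham hearts at day 4. Without sham replicates 2 and 3, too few libraries were left at day 4 for any share of any family to pass after adjustment. The share of Rxrg then differed by -13.8 percentage points (exact permutation test, adjusted p = 0.0756). At day 2 it was 48.1 ± 3.23% in MI and 53.1 ± 2.04% in sham hearts and did not pass (exact permutation test, adjusted p = 0.0595), though it passed without MI replicate 2 or 5 or sham replicate 2, where the difference was -6.04, -5.70 and -5.74 percentage points. Rxra held 36.9 ± 5.41% in MI and 28.8 ± 1.73% in sham hearts at day 7. Rxrb held a larger share in MI hearts at each day with the groups separated, 23.1 ± 1.24% in MI and 19.3 ± 0.914% in sham hearts at day 2 and 29.6 ± 2.89% in MI and 21.6 ± 1.36% in sham hearts at day 7 (exact permutation test, adjusted p = 0.013).

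Within the PPAR family Ppara held a smaller share in MI hearts at each day, and Ppard a larger one. Its share was 43.9 ± 3.63% in MI and 57.1 ± 2.45% in sham hearts at day 2, 40.6 ± 4.94% and 56.7 ± 5.77% at day 4, and 37.2 ± 3.99% and 54.1 ± 4.75% at day 7, with the groups separated and an adjusted exact permutation p of 0.013 at each day. Ppard held 34.7 ± 4.96% in MI and 26.1 ± 2.13% in sham hearts at day 7, while its log2 fold change at that day was -0.38. Pparg, the PPAR gene that defines adipocytes, also held a larger share at day 2, with 23.5 ± 1.80% in MI and 16.8 ± 1.46% in sham hearts (exact permutation test, adjusted p = 0.013), and at day 7, with 28.1 ± 4.55% in MI and 19.9 ± 4.39% in sham hearts (exact permutation test, adjusted p = 0.0373). The day 7 call of Pparg was lost without any 1 of MI replicates 1, 3, 4 and 5 or sham replicates 2, 4 and 5 and with counts not divided by length, with differences from 4.44 to 8.82 percentage points. Pparg had log2 fold changes of 0.04, -0.04 and -0.26 at days 2, 4 and 7, none past the threshold, beside adipocyte marker sums of 47.3 to 145 CPM in MI and 53.0 to 191 CPM in sham hearts at day 7. The part of these transcripts in its level was not tested.

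Within the PGC-1 family the shares that differed were those of Ppargc1a, smaller in MI hearts, and Pprc1, larger, which encodes the third member of the family, a growth-responsive coactivator. Ppargc1a held 51.5 ± 5.65% of the family in MI and 66.7 ± 4.04% in sham hearts at day 7, and Pprc1 held 26.1 ± 3.78% in MI and 11.0 ± 1.56% in sham hearts. Pprc1 itself rose, with log2 fold changes of 0.43 ± 0.12 (SE; edgeR adjusted p = 0.0101) at day 2, 0.74 ± 0.12 (SE; edgeR adjusted p = 0.00013) at day 4 and 0.48 ± 0.15 (SE; edgeR adjusted p = 0.014) at day 7. The share of Ppargc1b was 22.4 ± 1.94% in MI and 22.3 ± 3.26% in sham hearts at day 7. In the ERR family Esrra held 73.1 ± 1.43% in MI and 68.4 ± 1.92% in sham hearts at day 2, where all MI libraries lay above all sham libraries (exact permutation test, adjusted p = 0.013). At day 7 Esrra held 78.7 ± 3.0% in MI and 77.3 ± 2.75% in sham hearts and did not pass (exact permutation test, adjusted p = 0.511). At day 2 Esrrg held 16.3 ± 0.879% in MI and 19.8 ± 1.24% in sham hearts (exact permutation test, adjusted p = 0.013).

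**Figure D3:**
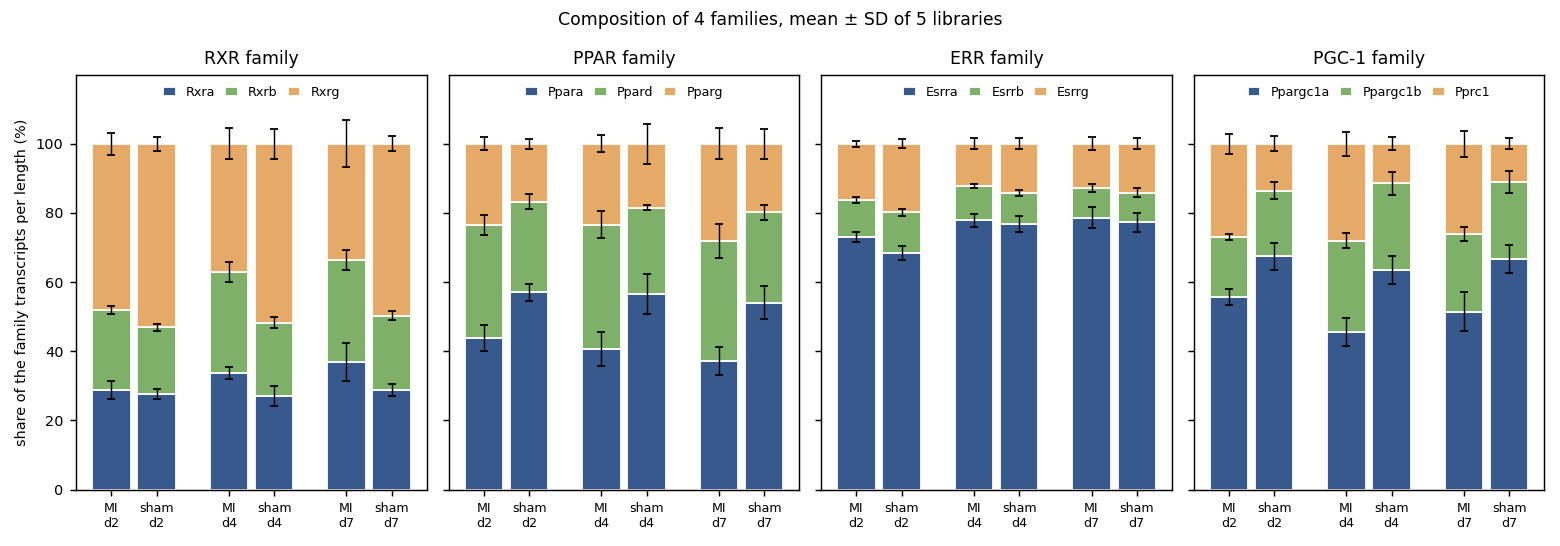
Share of each gene in its family, from CPM per exon length, with MI left of sham at days 2, 4 and 7 (d2, d4, d7). Bars stack the means of 5 libraries, error bars show the SD of each segment, and Rxrg, Ppara and Ppargc1a take smaller segments in MI than in sham at days 4 and 7.

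The genes these regulators act with and on were followed as lists that were chosen with earlier results of these data known. Of 30 partners and cofactors, 13 were lower and 2 higher at day 2, 16 and 2 at day 4, and 15 and 1 at day 7. Perm1, a muscle gene induced by PGC-1 and ERR that itself maintains oxidative capacity, was the partner with the largest fall at day 7, with log2 fold changes of -0.91, -1.0 and -1.41 at days 2, 4 and 7. Lpin1, a coactivator of PPARα and PGC-1α, had values of -1.14, -0.75 and -1.10, and Gabpa, a subunit of the ETS factor that binds the Tfam promoter, had -0.29, -0.35 and -0.42, all past the threshold. Nrf1, another activator of Tfam, had 0.15, 0.21 and 0.14, none past the threshold. The kinase subunit gene Prkaa1 rose by 0.36 at day 2 and 0.37 at day 4, while Prkaa2, the form typical of muscle, had -0.85 at day 7.

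PPAR targets separated by day. Of 25, 13 were lower and 2 higher at day 2, 21 and 2 at day 4, and 22 and 1 at day 7, with medians of -0.36, -1.23 and -1.29. Among genes of fatty acid handling, Cpt1b and Acot1 stood lower at the later days. Cpt1b, which admits fatty acids to mitochondria, had log2 fold changes of -0.39, -1.07 and -1.21, with the day 2 value close to the threshold (edgeR adjusted p = 0.0491). Acot1, a thioesterase, had 0.01, -2.04 and -1.98, of which the day 2 value did not pass. Angptl4, a secreted inhibitor of lipoprotein lipase, went the other way and rose, with values of 2.79 ± 0.33 (SE; edgeR adjusted p = 4.42e-05), 1.71 ± 0.42 (SE; edgeR adjusted p = 0.00685) and 1.25 ± 0.19 (SE; edgeR adjusted p = 0.000106) at days 2, 4 and 7. Plin2, a coat protein of lipid droplets, rose by 0.93 at day 2 and 0.70 at day 4 and had 0.16 at day 7, where it did not pass. The interaction between days 2 and 4 was negative past the threshold for 15 of the 25 targets, against 2.29% of all genes. In the sham hearts 9 of the 25 targets were higher and 0 lower at day 4 than at day 2, with a median of 0.34 (edgeR, against 11.7% of all genes higher), a difference that enters this interaction. Ppara itself had a difference of -0.04 ± 0.22 (SE; edgeR adjusted p = 0.95).

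ERR and PGC-1 targets were lower in nearly every case, 20 of 24 at day 2, 24 at day 4 and 23 at day 7, with medians of -0.41, -0.83 and -0.99. The respiratory chain subunit genes Ndufs1 and Sdha had day 7 values of -1.16 and -1.18, and Ogdh of the citric acid cycle had -0.76 at day 2, the lowest of the list at that day. Of 11 KLF15 targets 9 were lower at day 2 and all 11 at days 4 and 7, with medians of -0.75, -1.03 and -1.16. Kcnip2, the subunit of the transient outward potassium current, had values of -1.73, -1.27 and -1.88, and Slc2a4, the insulin-dependent glucose transporter, had -1.26, -1.03 and -1.36. Prodh, which starts proline breakdown, had -1.21, -0.40 and -1.01, so that its day 4 value was the smallest in size. Of 17 genes that maintain or transcribe mitochondrial DNA beside Tfam, 9 were lower at day 2, 13 at day 4 and 12 at day 7, with medians of -0.24, -0.51 and -0.52. Among them Polrmt, the mitochondrial RNA polymerase, had -0.57, -0.82 and -0.73, and the helicase gene Twnk had -0.63, -0.72 and -1.01, all past the threshold. These counts stand beside 22.2, 25.2 and 26.6% of all genes lower and 24.1, 27.5 and 28.4% higher at days 2, 4 and 7.

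**Figure D4:**
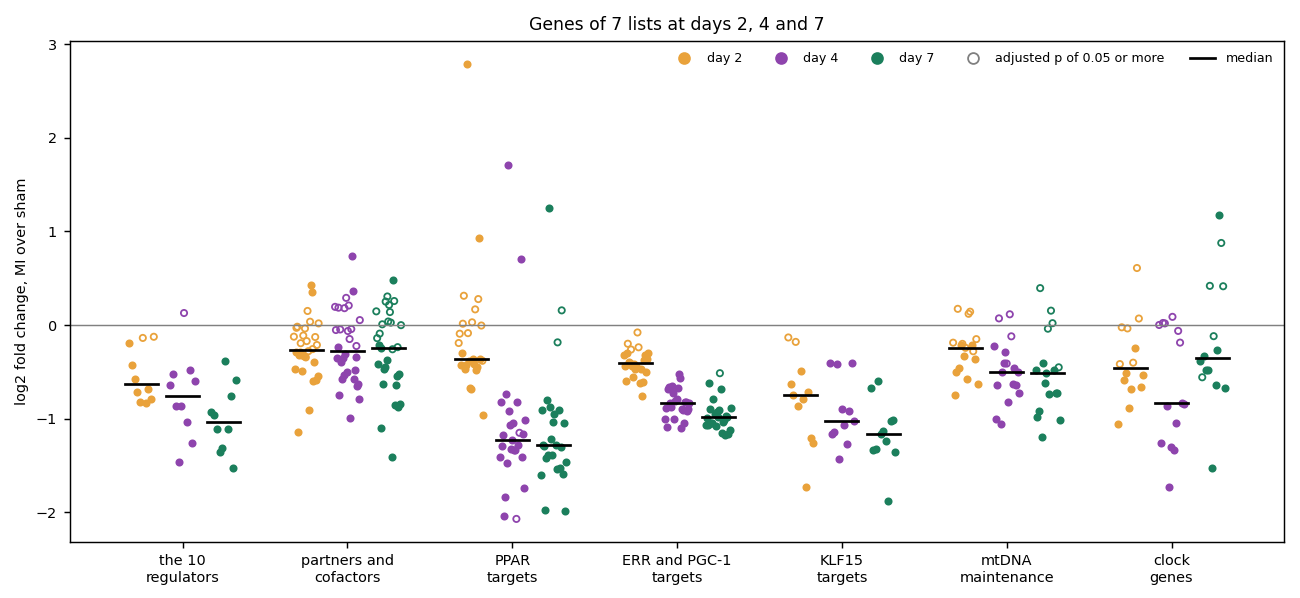
Log2 fold change of MI over sham for each gene of 7 lists at days 2, 4 and 7, with filled points for an edgeR adjusted p under 0.05 and black lines for the median of the list. The median of the PPAR targets is -0.36 at day 2 and -1.23 at day 4, and the point above 2 at day 2 is Angptl4.

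Clock genes were followed because Klf15 oscillates over the day in the heart. Of 14, 8 were lower at each day, against 22.2, 25.2 and 26.6% of all genes at days 2, 4 and 7, and 1 was higher at day 7, against 28.4% of all genes. Dbp, an output factor of the clock, had log2 fold changes of -0.04, -1.73 and 0.42, and Nr1d1, the repressor REV-ERBα, had -0.40, -1.33 and -0.64. Arntl, which encodes BMAL1, had -1.05 at day 2, 0.00 at day 4 and -0.39 at day 7. The MI effect of day 4 minus that of day 2 was -1.69 for Dbp, -0.92 for Nr1d1, -0.74 for Klf15 and 1.06 for Arntl on the log2 scale, all past the threshold (edgeR adjusted p = 0.00629, 0.0273, 0.00662 and 0.019). Of the 14 clock genes, 3 were lower and 2 higher past the threshold for this difference, and 9 did not pass. Among all 15537 genes tested, 746 passed in either direction. The labels give no hour of the day at which hearts were taken, and the part of sampling time in these values was not tested.

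Across the 6 group means of log2 CPM, centred for each gene, Ppargc1a and Esrrg had the most alike profiles of the 10, with a root mean square distance of 0.09, followed by Ppara and Ppargc1a at 0.109. Among 10035 genes the nearest to each member, by the same distance over 6 groups, was Oxld1 for Ppargc1a at 0.0326, Dennd4b for Ppara at 0.0528, Adhfe1 for Rxrg at 0.049 and Gstm1 for Esrrg at 0.0413. It was Ppat for Tfam at 0.0211, Cmc2 for Esrrb at 0.0281, Nhlrc2 for Ppard at 0.0313, Pex16 for Esrra at 0.0342 and Hk2 for Ppargc1b at 0.0683. Klf15 stood farther from other genes than the rest, with Car4 nearest at a distance of 0.125. These distances are descriptions over group means.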

How the data were processed

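RNA of mouse hearts was sequenced in 30 directional libraries as paired reads of 150 bases, per the labels' protocols. Deposited were raw counts of reads for each Ensembl gene, in whole numbers. The submitters' processing notes name bcl2fastq 2.20.0, featureCounts and GRCm38. Aligner, strand setting and featureCounts version were not given in the sources used here. Totals ran from 7841930 to 14070017 counts. A gene with 0 counts in a library may hold up to 3, which covers counting error only.

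Groups follow the labels. The 10 members and all lists were chosen with earlier results of these data known, and the family shares and the scaling by library totals were added after the values were seen. Named genes are all members, fixed genes of each list and the extremes of each list at each day. MI and sham were compared within a day in 10 libraries, and differences between days in 1 fit of all 30, with edgeR 4.0.16 in R 4.3.3 (filterByExpr with minimum count 10 and total 15, TMM, robust quasi-likelihood F test, 2-sided, Benjamini-Hochberg over all genes tested, called under 0.05). The SE is the log2 fold change over the square root of F. Ratios to markers used log2 with 0.5 CPM added to the member. Exact permutation tests used scipy 1.17.1. Lengths come from GENCODE M21. Alternatives were median-ratio factors, library totals, DESeq2 1.42.0, limma 3.58.1 voom with sample weights, 2 other filters (none, or a minimum mean of 1 CPM), the replicate number as a block, other libraries in the fit, each library left out, and the libraries with other tissues (lung genes, Myh1 or Ucp1 of at least 50 CPM) left out. Fits were tested on simulated data.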

Additional observations from a re-analysis of the deposited data

Results flagged for a closer look

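Within the MI day 7 group, Tfam at 59.7 CPM in replicate 5 stood apart from the other 4 libraries, by a gap test that was applied to 60 groups of 5 libraries and by chance flags about 1 group in 20. The same library had the highest value of its group for 6 of the 10 genes.

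The effect of MI differed between days in 9 tests of single genes, each by edgeR's test of the difference itself, adjusted over all genes. For day 4 minus day 2 the differences on the log2 scale were -0.74 for Klf15 and -0.47 for Tfam. For day 7 minus day 4 the difference was -0.49 for Ppard, whose day 4 effect was 0.13 and whose day 7 effect was -0.38. For day 7 minus day 2 the differences were -0.71 for Esrra, -0.50 for Esrrb, -0.52 for Esrrg, -0.72 for Rxrg, -0.61 for Klf15 and -0.43 for Tfam. Their edgeR adjusted p-values were 0.000671 for Esrra, 0.0327 for Esrrb, 0.0328 for Esrrg, 0.0199 for Rxrg, 0.00688 for Klf15 and 0.0218 for Tfam. In the sham hearts Esrra was 0.42 higher and Klf15 had a log2 fold change of -0.56 at day 4 against day 2, so that the sham side moved as well for these genes.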

How the results depend on the processing

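The counts of members lower at days 2, 4 and 7 were 7 to 8, 8 to 9 and 9 to 10 in all alternative fits, and 7 to 8, 9 and 10 with any 1 library left out. With library totals 8 were lower and Ppard was higher at day 4. With the replicate number as a block they were 8, 9 and 10, and the block ended 1 call, that of Ppard for day 7 minus day 4, where 0 members passed, and added Ppargc1a, at -0.28, for sham day 4 against day 2. The deviations of same-numbered libraries from their group means had correlations from -0.20 to 0.25. Such values cannot show that the numbers carry no pairing, and the labels state none.

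Counts of members for the differences between days moved more. For day 4 minus day 2, main count 2, it was 1 with library totals, with no filter and without the libraries with other tissues, and 1 to 3 with 1 library left out. For day 7 minus day 4 it was 0 with the contrast's own groups only, with the block and without the libraries with other tissues, and 0 to 1 with 1 left out, and for day 7 minus day 2 it was 3 to 7 with 1 left out. Per cardiomyocyte marker the count was 5 to 6, 3 to 4 and 4 to 6 at days 2, 4 and 7 with 1 left out. Without the libraries with other tissues, neither a member on that scale nor a family share could pass the exact tests at day 4. Too few libraries were left for that, so that the counts of 0 there do not bear on the calls. The share differences were -13.8 for Rxrg, -20.3 for Ppara and -17.7 for Ppargc1a (exact permutation test, adjusted p = 0.0756). At day 7 that setting leaves 2 sham libraries and the exact tests are not given, and day 2 has no such library.

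Values near 0 changed sign. For day 4 minus day 2, Ppara was 0.043 with library totals and -0.21 to 0.050 with 1 library left out. For day 7 minus day 4, Ppargc1a was 0.044 with voom and -0.13 to 0.024 with 1 left out, and Tfam -0.050 to 0.097. For day 7 minus day 2, Ppargc1b was 0.038 with library totals, 0.061 with voom and -0.16 to 0.058 with 1 left out. In sham hearts, day 7 against day 4, Esrrg was -0.0069 with voom, and Ppara was 0.064 and Esrrb 0.00020 without the libraries with other tissues. With 1 left out that comparison gave -0.081 to 0.076 for Ppara, -0.046 to 0.085 for Esrrg, -0.086 to 0.037 for Rxrg, -0.0029 to 0.082 for Esrra, -0.076 to 0.018 for Ppargc1a and -0.12 to 0.018 for Esrrb. Per cardiomyocyte marker it gave -0.0041 to 0.083 for Tfam, -0.025 to 0.082 for Ppard and -0.070 to 0.026 for Esrra at day 2, -0.021 to 0.053 for Esrra at day 4 and -0.023 to 0.076 for Tfam at day 7. The shares at day 7 were -0.38 to 0.46 for Esrrb and -0.91 to 1.36 points for Ppargc1b. The cause of these changes was not tested.

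Genes called overall for day 4 minus day 2 numbered 746 in the main setting, 1218 with DESeq2, 1796 with voom and 475 with no filter. For day 7 minus day 4 they numbered 158, against 419 with DESeq2, 268 with voom, 84 with no filter, 89 with the contrast's own groups and 9 without the libraries with other tissues. At day 7 that last setting called 4967 genes, against 7976, with fewer libraries. In the sham comparisons it called 2265 genes, against 3795, for day 4 against day 2, and 0, against 19, for day 7 against day 4, where edgeR called 12 with no filter and 5 with only the contrast's groups, DESeq2 105 and voom 86.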
